A study of Mus musculus with 8 samples.

Results

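The genes described here are the 8 subunits of the mouse condensin complexes together with Top2a, which encodes topoisomerase II alpha, and Mki67, which encodes Ki-67. They were taken by name, after the Ensembl identifiers of the count files had been matched to GENCODE M21 symbols, and all 10 were found among the 55573 genes listed. Every one of them passed the filter on low counts, which kept 15259 genes. The RNA came from colon fibroblasts of the strain labelled C57BL6/J, grown as a flat culture on plastic in Advanced DMEM F12 with 10% FBS. All cultures, those not irradiated included, had been treated with APTKA-conditioned medium; what APTKA stands for is not spelled out in the labels. Irradiated cells had received 3 fractions of 2 Gy, non-irradiated cells received none, and both were collected at the time that the labels give as 72 h after the first dose. Each group had 4 libraries, numbered I to IV. The design text calls the samples independent. Separate animals or cultures are not stated, so p-values reflect only the variation between these libraries, part of which may be technical.

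Condensin is a ring-shaped, ATP-driven protein complex that folds chromatin into the compact rods seen in mitosis by extruding loops of DNA. Both forms share the SMC ATPases Smc2 and Smc4. Condensin I adds the kleisin Ncaph and the HEAT-repeat subunits Ncapd2 and Ncapg, and meets chromosomes after the nuclear envelope breaks down. Condensin II adds Ncaph2, Ncapd3 and Ncapg2, and is nuclear through the cell cycle. Topoisomerase II alpha passes one DNA duplex through another to untangle sister chromatids, and Ki-67 coats mitotic chromosomes and keeps them apart. Top2a and Mki67 transcripts are abundant in dividing cells and scarce in resting ones. Many genes of this kind carry, close to their start, a CHR (cell cycle genes homology region), the element contacted by the MuvB core of the DREAM and FOXM1 complexes, near CCAAT boxes, which bind NF-Y.

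Promoter windows from RefSeq, of the GRCm38.p6 build and reaching from 250 bases before to 50 bases after the annotated start, were found for 9 of the 10 genes. Smc4 had no entry. The start meant here is that of RefSeq, and the GENCODE gene can begin elsewhere. Before the RefSeq start, within the printed bases, lie the GENCODE starts of Ncapd2 (125191701), Ncapg (45669919) and Ncapg2 (116405402). The 250 bases before the start are given here for 6 genes, each with at least 1 CHR. Ncaph2, the only gene not called, is last. Their CCAAT boxes run from 6 in Top2a to 0 in Ncapg2 and Ncaph2. The windows used for Ncaph and Ncapd3, which were also called lower, held neither element and are not printed, nor is that of Smc2. Capitals mark CHR words (TTTGAA or TTCGAA) and CCAAT boxes, on either strand, and each sequence runs 5′ to 3′ along its gene and ends at the base before the start.
Top2a, chr11:99024190-99024439, minus strand: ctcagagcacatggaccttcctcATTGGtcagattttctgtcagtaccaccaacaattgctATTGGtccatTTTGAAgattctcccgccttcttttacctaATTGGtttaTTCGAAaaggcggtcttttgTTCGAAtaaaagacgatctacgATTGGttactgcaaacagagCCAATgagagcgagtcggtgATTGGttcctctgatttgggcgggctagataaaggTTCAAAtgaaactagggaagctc
Mki67, chr7:135716380-135716629, minus strand: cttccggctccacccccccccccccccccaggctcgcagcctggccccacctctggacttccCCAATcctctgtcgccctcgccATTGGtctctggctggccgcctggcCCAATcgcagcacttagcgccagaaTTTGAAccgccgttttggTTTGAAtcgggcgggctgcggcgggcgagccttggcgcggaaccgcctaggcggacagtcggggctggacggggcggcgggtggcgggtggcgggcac
Ncapd2, chr6:125191587-125191836, minus strand: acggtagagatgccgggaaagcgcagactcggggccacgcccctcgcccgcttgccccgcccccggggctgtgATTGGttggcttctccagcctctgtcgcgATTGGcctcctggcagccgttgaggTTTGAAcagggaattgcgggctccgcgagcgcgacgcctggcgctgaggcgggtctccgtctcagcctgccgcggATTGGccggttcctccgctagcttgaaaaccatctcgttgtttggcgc
Ncapg, chr5:45669675-45669924, plus strand: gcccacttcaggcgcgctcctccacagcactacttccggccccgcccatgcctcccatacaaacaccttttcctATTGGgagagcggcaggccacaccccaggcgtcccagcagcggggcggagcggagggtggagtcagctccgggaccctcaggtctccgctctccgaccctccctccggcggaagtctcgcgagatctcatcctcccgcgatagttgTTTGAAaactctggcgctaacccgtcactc
Ncapg2, chr12:116405186-116405435, plus strand: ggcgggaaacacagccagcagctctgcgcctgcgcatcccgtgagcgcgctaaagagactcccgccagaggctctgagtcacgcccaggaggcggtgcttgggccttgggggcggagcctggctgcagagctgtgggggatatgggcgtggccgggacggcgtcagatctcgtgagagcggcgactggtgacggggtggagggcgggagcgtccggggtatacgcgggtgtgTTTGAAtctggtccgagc
Ncaph2, chr15:89355469-89355718, plus strand: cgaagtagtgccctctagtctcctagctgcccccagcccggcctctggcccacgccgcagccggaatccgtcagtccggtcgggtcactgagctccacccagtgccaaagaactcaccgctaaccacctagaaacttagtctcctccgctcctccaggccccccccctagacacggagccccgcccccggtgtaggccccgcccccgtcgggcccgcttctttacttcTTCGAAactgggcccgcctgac

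A CHR word stood in 7 of the 9 windows, against 19.2% of the 32851 promoter windows of that length in the table. The 32851 are windows and not genes, so a gene with several annotated starts enters more than once. Each of the 9 genes entered with 1 window. A CCAAT box stood in 5 of the 9, against 37.4% of all windows, and the same 5 windows held both kinds, against 7.52% of all. They belong to Top2a, Mki67, Ncapd2, Ncapg and Smc2. The Top2a window held 6 CCAAT boxes and 4 CHR words, the nearest of which begins 23 bases before the start. The Ncapg and Ncapg2 windows each held 1 CHR word, 30 and 18 bases before the RefSeq start. The CHR word of Ncapg2 lies inside the gene as GENCODE places it. An E2F word (TTTGGCGC, TTTCCCGC, TTTGCCGC or TTTCGCGC, either strand) stood in 3 windows, those of Ncapd2, Ncapg and Ncapg2, against 2.26% of all. The Ncaph2 window held the TTCGAA form 22 bases before the start and no CCAAT box. The windows of Ncaph and Ncapd3 held none of these letters. A further window of Ncapd3, at an annotated start 30251 bases downstream, was left out of the counts over the 9 windows. It held 1 CHR word, which begins 249 bases before that start, and none of the CCAAT or E2F words, so whether Ncapd3 counts among the genes with a CHR word depends on the start used. The words searched do not overlap one another in the capitals shown. A match is a description of the letters in the window and no measure of binding.

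**Figure D1:**
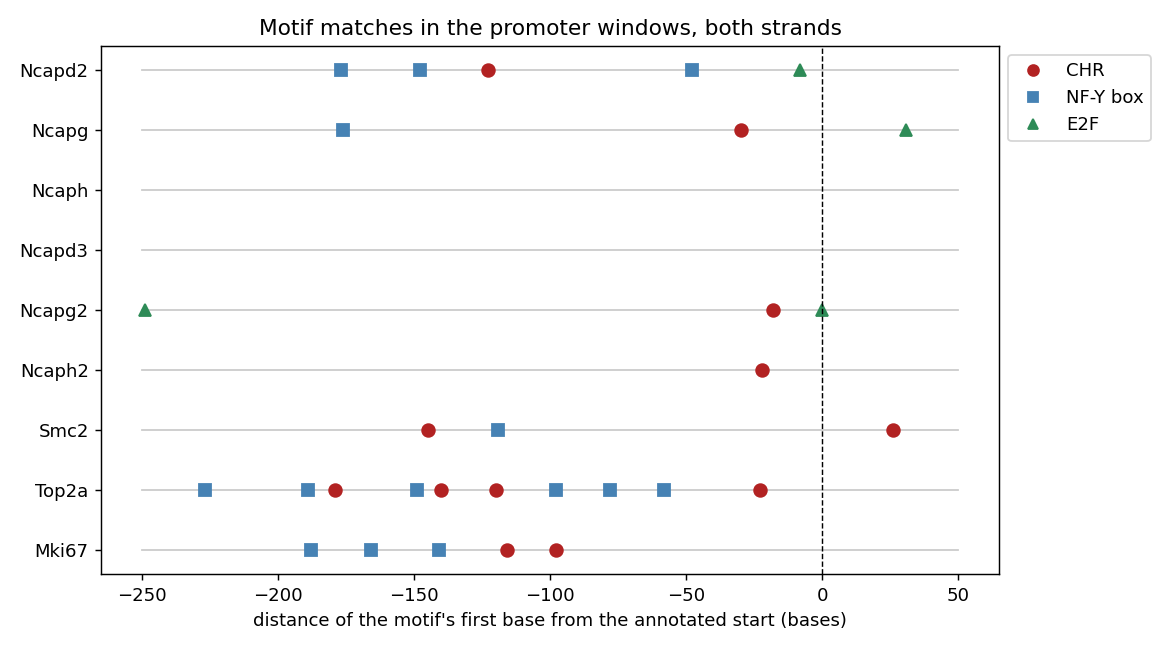
Positions of CHR words (circles), CCAAT boxes (NF-Y box, squares) and E2F words (triangles) in the promoter windows of 9 genes, with the distance of each word's first base from the annotated start in bases on the horizontal axis. Top2a has 4 circles and 6 squares, Ncaph2 has 1 circle, and the lines of Ncaph and Ncapd3 are empty.

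Total counts ran from 30203137 to 36497990 in irradiated libraries and from 28731227 to 37157216 in non-irradiated libraries. The 12 fibroblast markers summed to 14800 to 16120 CPM (counts scaled to library size, per 1e6) in irradiated and 16247 to 19079 CPM in non-irradiated libraries. Col1a2 and Vim were called lower among them, and S100a4, Fap and Lum were low throughout, at 3.03, 3.05 and 5.81 CPM in irradiated and 3.27, 3.92 and 5.44 CPM in non-irradiated libraries. The 8 epithelial markers summed to 1.07 to 1.58 CPM in irradiated and 0.785 to 2.16 CPM in non-irradiated libraries. Lists of immune, endothelial and neural or glial markers summed to between 3.75 and 5.50 CPM in irradiated and between 3.66 and 5.37 CPM in non-irradiated libraries, with Tie1, an endothelial receptor, at 0 in every library. The 4 smooth muscle markers summed to 306 to 361 CPM in irradiated and 362 to 392 CPM in non-irradiated libraries. Actg2 was called lower among them (291 CPM in irradiated and 334 CPM in non-irradiated libraries, edgeR adjusted p = 0.0263), and the part of this list in the results was not tested. Irradiated I and II held 15271 and 15425 CPM of mitochondrial 12S and 16S rRNA, against 4361 and 5906 CPM in irradiated III and IV and 4203 to 5874 CPM in non-irradiated libraries. Results without irradiated I and II are given where they differ. Each replicate pair differed by more than counting noise (chi-square per degree of freedom of 5.20 or more), so none was treated as 1 library deposited again.

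Transcripts of 9 of the 10 genes were lower in irradiated fibroblasts, and 0 were higher (0 also at an unadjusted p under 0.05, with DESeq2 and with limma-voom). The test was edgeR's quasi-likelihood test over all 15259 genes, with a call at a Benjamini-Hochberg adjusted p under 0.05. It called 4.15% of all genes lower and 2.59% higher. The log2 fold changes, irradiated over non-irradiated, ran from -0.85 for Mki67 to -0.09 for Ncaph2, with a median of -0.51 over the 10 genes and 0.00 over all genes. For the same 9 genes every irradiated library was below every non-irradiated one, which held for 8.07% of all genes in that direction. In bulk RNA, fewer dividing cells and less of these transcripts per cell cannot be told apart. The genes had been chosen with earlier results of these data known. Without irradiated I and II, 7 of the 10 were called lower, against 1.88% of all genes in that fit.

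**Figure D2:**
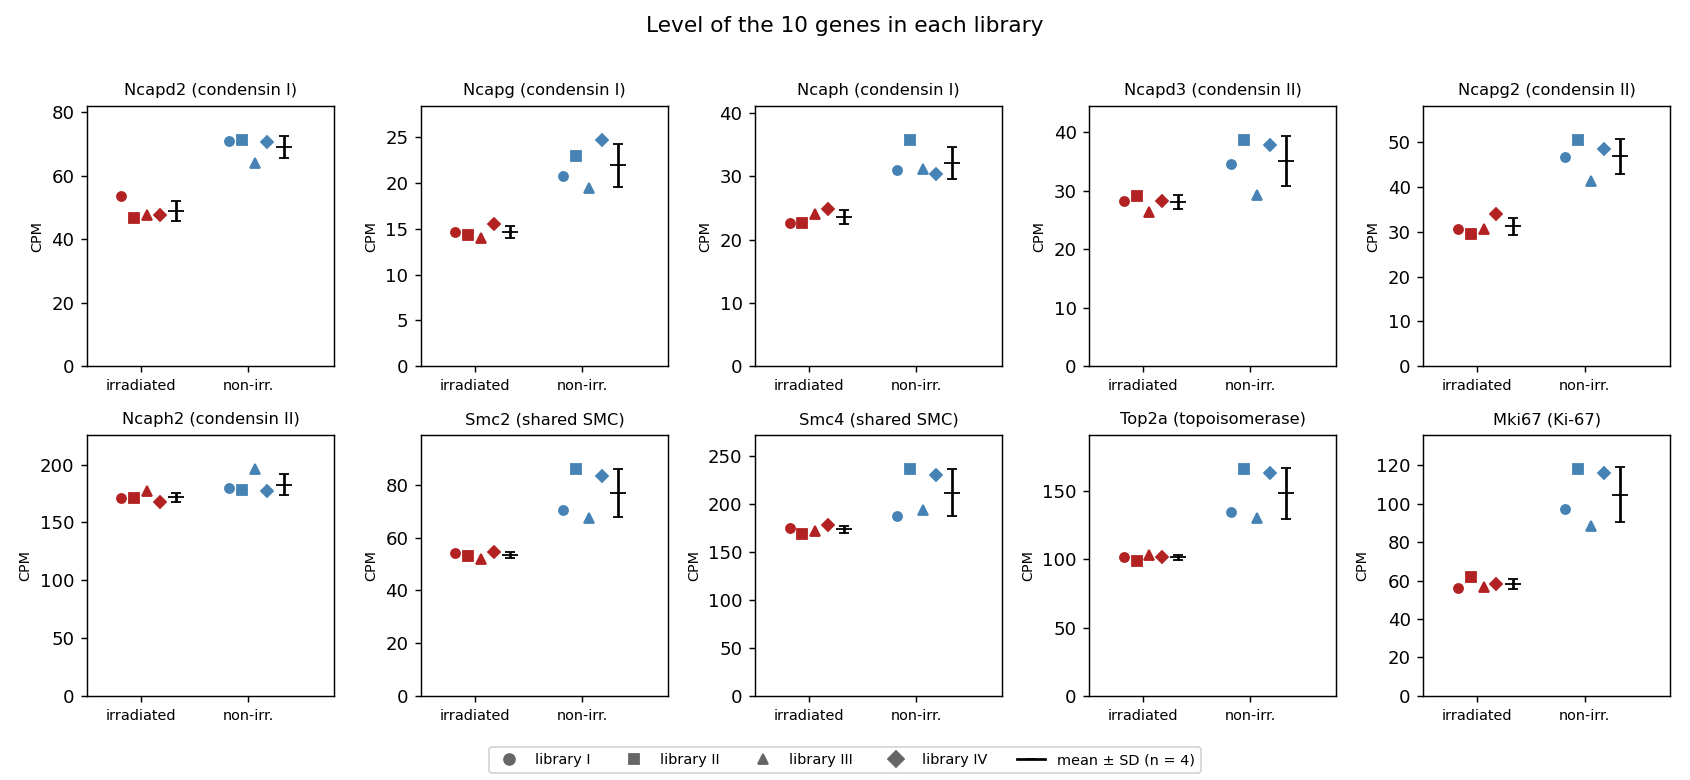
CPM of each of the 10 genes in each library, irradiated (left, red) and non-irradiated (right, blue), with symbols for libraries I to IV and bars for the mean ± SD of 4 libraries. The groups are apart for every gene except Ncaph2, and the non-irradiated points of Smc2, Smc4, Top2a and Mki67 fall into a higher pair (II and IV) and a lower pair (I and III).

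Mki67 fell most of the 10. It stood at 56.4, 61.8, 56.7 and 58.0 CPM in irradiated libraries I to IV, against 97.1, 118, 88.2 and 116 CPM in non-irradiated libraries I to IV. The highest irradiated library was 0.51 log2 units below the lowest non-irradiated one. The log2 fold change of -0.85 (SE 0.08, edgeR adjusted p = 3.93e-05) is a level of 0.555 times that of non-irradiated cells, and 28 of the 15259 genes tested had a lower fold change. The gene lies on chromosome 7 from 135689784 to 135716361 of mm10, on the minus strand.

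Top2a stood at 102, 99.0, 103 and 102 CPM in irradiated libraries, against 135, 166, 130 and 163 CPM in non-irradiated libraries. The irradiated values spread over 3.82 CPM, and the non-irradiated ones over 35.9 CPM, with II and IV high and I and III low. The log2 fold change was -0.55 (SE 0.07, edgeR adjusted p = 0.000298). The gene lies on chromosome 11 from 98992943 to 99024189, on the minus strand.

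All 3 subunits specific to condensin I fell. Ncapd2, a HEAT-repeat subunit (chromosome 6, 125168007 to 125191701), stood at 53.6, 46.6, 47.8 and 47.7 CPM in irradiated libraries, against 70.9, 71.4, 64.0 and 70.6 CPM in non-irradiated libraries (log2 fold change -0.50, SE 0.05, edgeR adjusted p = 6.73e-05). Ncapg, the other HEAT-repeat subunit (chromosome 5, 45669919 to 45700546), stood at 14.6, 14.3, 14.0 and 15.5 CPM in irradiated libraries, against 20.7, 22.9, 19.4 and 24.7 CPM in non-irradiated libraries (-0.59, SE 0.07, adjusted p = 0.000314). Both groups were narrow for Ncapd2 except for 1 library each, irradiated I at the top of its group and non-irradiated III at the bottom. Ncaph, the kleisin that closes the ring (chromosome 2, 127103809 to 127133954), stood at 22.7, 22.7, 24.1 and 24.9 CPM in irradiated libraries, against 31.0, 35.8, 31.2 and 30.4 CPM in non-irradiated libraries (-0.44, SE 0.06, adjusted p = 0.000413). Non-irradiated II stood above the other 3 libraries of its group for Ncaph. All 3 calls held in each of the 18 alternatives of processing or left-out libraries. Ncapg shares 944 bases of exon, 13.36% of its exon length, with Lcorl on the opposite strand. Lcorl had 1599 to 2138 counts per library, against 470 to 784 for Ncapg, and the strand setting of the counting is not given in the sources used here.

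Of the 3 subunits specific to condensin II, 2 fell. Ncapg2, a HEAT-repeat subunit (chromosome 12, 116405402 to 116463731), stood at 30.7, 29.4, 30.7 and 33.9 CPM in irradiated libraries, against 46.7, 50.5, 41.4 and 48.5 CPM in non-irradiated libraries. Its log2 fold change of -0.59 (SE 0.06, edgeR adjusted p = 8.82e-05) had the same size as that of its condensin I counterpart Ncapg. Ncapd3, the other HEAT-repeat subunit (chromosome 9, 27030175 to 27095315), stood at 28.3, 29.1, 26.3 and 28.3 CPM in irradiated libraries, against 34.6, 38.7, 29.2 and 37.8 CPM in non-irradiated libraries (-0.32, SE 0.08, adjusted p = 0.0207). Its groups were separated by 0.01 log2 units, since non-irradiated III was close to irradiated II. The call was lost without irradiated III (adjusted p = 0.0639), irradiated IV (0.0535), non-irradiated IV (0.0639) or both irradiated I and II (0.0725). Ncaph2, the condensin II kleisin (chromosome 15, 89355719 to 89372826), stood at 171, 171, 177 and 168 CPM in irradiated libraries, against 180, 178, 196 and 177 CPM in non-irradiated libraries. The groups met at irradiated III and non-irradiated IV, and the log2 fold change of -0.09 (SE 0.04, adjusted p = 0.211) did not pass the test under any of the 18 alternatives. Its unadjusted edgeR p was 0.0403, in the same direction as the other members. On the opposite strand, Ncaph2 shares 829 bases of exon (19.75% of its exon length) with Sco2 and 535 bases (12.74%) with Tymp. Sco2 had 0 to 2 counts per library and Tymp 16 to 41, against at least 5092 for Ncaph2 itself. Without the strand setting, it is not known whether reads in the shared exons were counted for Ncaph2.

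Both SMC subunits, which the 2 complexes share, fell. Smc2 (chromosome 4, 52439243 to 52488260) stood at 54.1, 52.9, 52.0 and 54.6 CPM in irradiated libraries, against 70.7, 86.0, 67.6 and 83.3 CPM in non-irradiated libraries (log2 fold change -0.53, SE 0.07, edgeR adjusted p = 0.000361). Smc4 (chromosome 3, 69004738 to 69034623) stood at 175, 169, 172 and 178 CPM in irradiated libraries, against 187, 236, 194 and 230 CPM in non-irradiated libraries (-0.29, SE 0.07, adjusted p = 0.0171). Non-irradiated I and III lay close above the irradiated range for Smc4, and II and IV well above it. The call of Smc4 was lost without non-irradiated IV (adjusted p = 0.0545) and without both irradiated I and II (0.112).

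Divided by exon length, the members covered a range of levels, in the order shown by the plot of levels per length. Ncaph2 and Smc4 were highest, at 40.9 ± 0.977 and 33.3 ± 0.817 CPM per kb in irradiated cells (SD, n = 4). In non-irradiated cells they stood at 43.5 ± 2.16 and 40.7 ± 4.78 CPM per kb, where they overlapped. Top2a (11.3 ± 0.193 CPM per kb in irradiated and 16.5 ± 2.06 in non-irradiated cells) and Smc2 (9.75 ± 0.218 in irradiated and 14.0 ± 1.67 in non-irradiated cells) came next, and Ncapd2, Mki67 and Ncaph lay between 5.48 and 7.81 CPM per kb in irradiated cells and between 7.45 and 11.0 in non-irradiated cells. Ncapd3 (3.55 ± 0.152 CPM per kb in irradiated and 4.44 ± 0.545 in non-irradiated cells) and Ncapg2 (3.14 ± 0.195 in irradiated and 4.71 ± 0.393 in non-irradiated cells) overlapped in both groups, and Ncapg, the lowest at 2.07 ± 0.0900 CPM per kb in irradiated and 3.10 ± 0.332 in non-irradiated cells, closed the order. The subunits of condensin II thus held both the highest and some of the lowest levels among the 8 condensin genes. Exon length here is the union of all annotated exons, so levels of genes with long rare exons are understated.

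**Figure D3:**
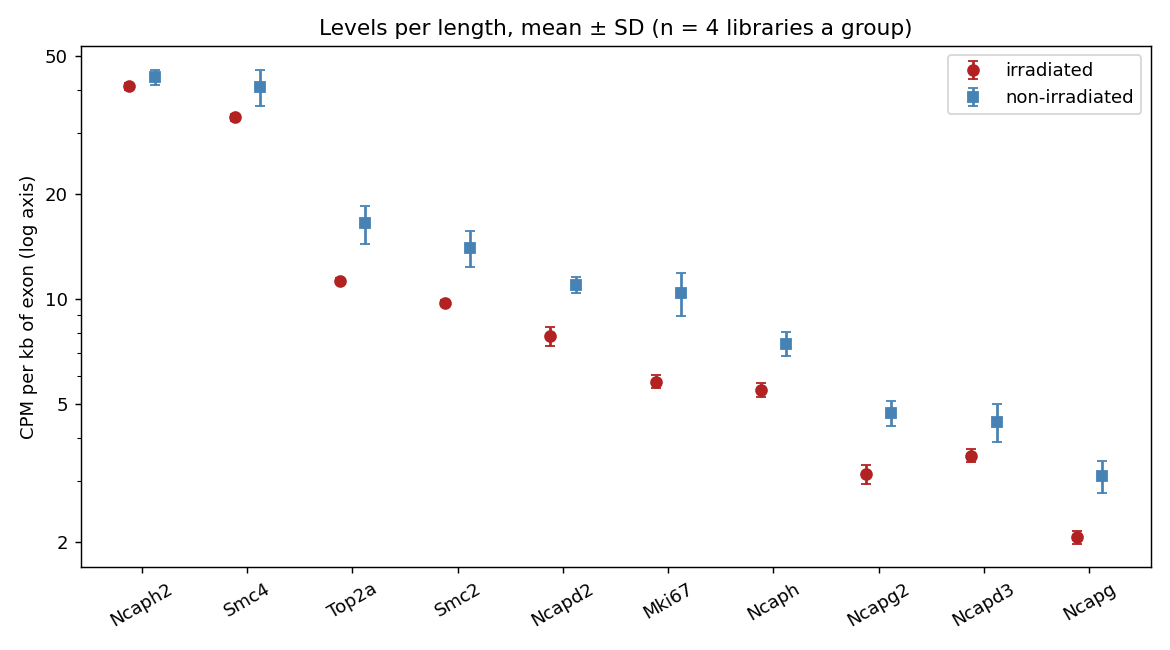
Mean CPM per kb of exon (log axis) of the 10 genes, ± SD over 4 libraries, irradiated (red circles) and non-irradiated (blue squares). Ncaph2 and Smc4 stand above the others in both groups, and Ncapg is lowest at 2.07 and 3.10 CPM per kb.

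Whether members changed by unequal amounts was tested with 6 ratios of read counts within a library, in which library scaling cancels. The test was an exact two-sided permutation test over the 8 libraries. With 70 assignments its smallest p is 0.0286, and p-values were adjusted over the 6 ratios. A ratio at this smallest p passes 0.05 after adjustment only if others among the 6 reach it as well. The adjusted p-values of 0.0429 are therefore not separate evidence for each ratio. The ratio of Mki67 to Top2a was 0.554, 0.625, 0.552 and 0.566 in irradiated libraries, against 0.718, 0.712, 0.676 and 0.715 in non-irradiated libraries (log2 difference -0.30, SE 0.05, exact p = 0.0286, adjusted p = 0.0429). The groups did not overlap, so that Ki-67 transcripts fell more than those of topoisomerase II alpha in the same libraries. The ratio of Smc2 to Smc4 was 0.308 ± 0.00444 in irradiated and 0.363 ± 0.0122 in non-irradiated libraries (SD, n = 4; log2 difference -0.24, SE 0.03, exact p = 0.0286, adjusted p = 0.0429). Among all 6 ratios it had the smallest SE, although the coefficient of variation between non-irradiated libraries was 11.9% for Smc2 and 11.8% for Smc4.

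Of the 3 pairs that set a condensin I subunit against its condensin II counterpart, 1 differed. The kleisin ratio, Ncaph to Ncaph2, was 0.138 ± 0.00721 in irradiated and 0.176 ± 0.0180 in non-irradiated libraries (SD, n = 4; log2 difference -0.35, SE 0.08, exact p = 0.0286, adjusted p = 0.0429). Ncapd2 to Ncapd3 was 1.75 ± 0.131 in irradiated and 1.99 ± 0.165 in non-irradiated libraries, which overlapped (log2 difference -0.18, SE 0.08, exact p = 0.114, adjusted p = 0.137). Ncapg to Ncapg2 was 0.469 ± 0.0149 in irradiated and 0.469 ± 0.0292 in non-irradiated libraries (log2 difference 0.00, SE 0.05, exact p = 0.971). Top2a was also set against Top2b, its paralog that is expressed in resting cells too. Top2b stood at 374 ± 13.4 CPM in irradiated and 360 ± 28.5 CPM in non-irradiated libraries (SD, n = 4; log2 fold change 0.05, edgeR adjusted p = 0.599). The ratio of Top2a to Top2b was 0.280, 0.266, 0.281 and 0.261 in irradiated libraries, against 0.409, 0.429, 0.382 and 0.429 in non-irradiated libraries (log2 difference -0.60, SE 0.05, exact p = 0.0286, adjusted p = 0.0429). Without non-irradiated I the adjusted p of the 4 ratios that passed lay above 0.05, with log2 differences from -0.60 to -0.22. It was 0.0857 for Mki67 to Top2a and 0.0571 for Ncaph to Ncaph2, Smc2 to Smc4 and Top2a to Top2b (exact test). As the p-values were adjusted together, a larger p of 1 ratio can raise the adjusted p of the others.

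**Figure D4:**
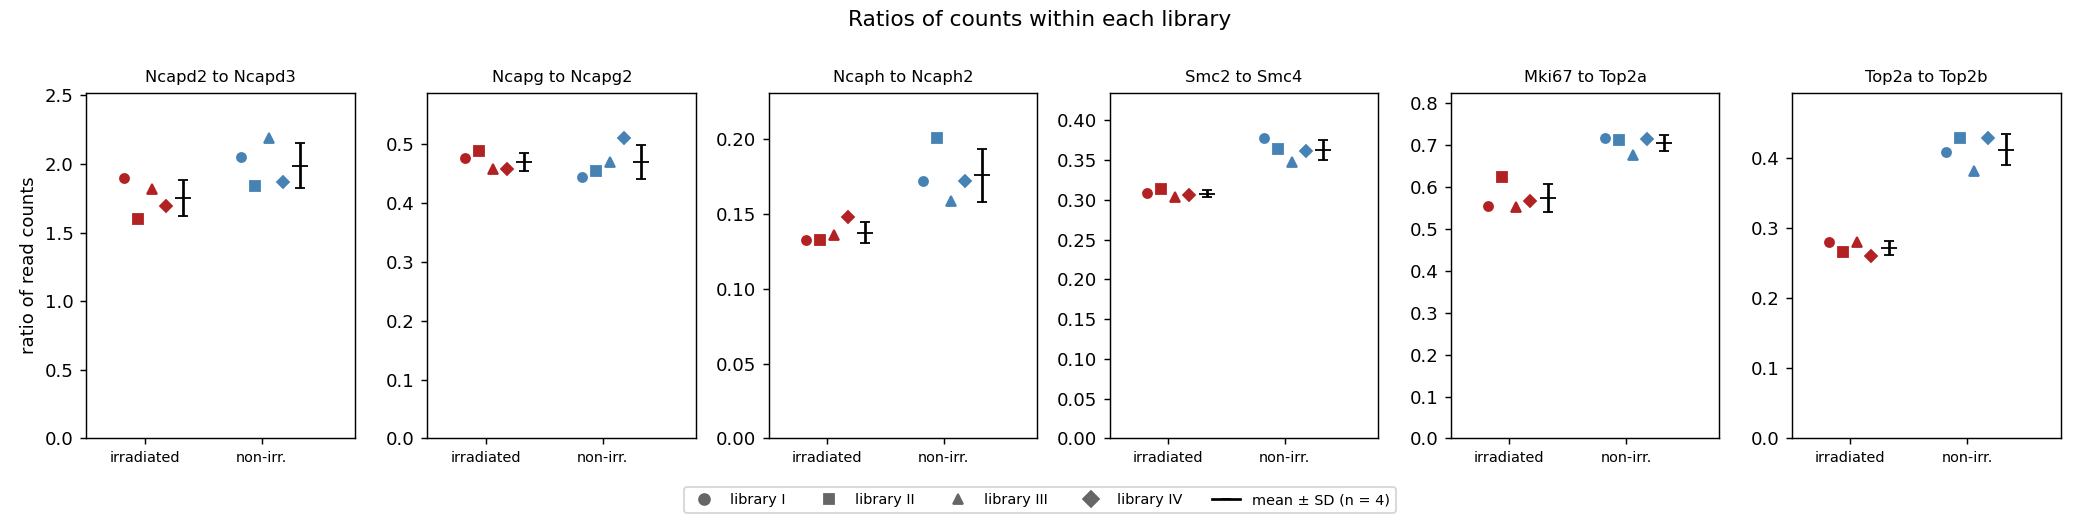
Ratio of read counts of 2 genes within each library, for 6 pairs, irradiated (left, red) and non-irradiated (right, blue), with the mean ± SD of 4 libraries. The groups are apart for Ncaph to Ncaph2, Smc2 to Smc4, Mki67 to Top2a and Top2a to Top2b, and overlap for the other 2 pairs.

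For 9 of the 10 genes the irradiated libraries varied less than the non-irradiated ones. The coefficient of variation ran from 1.71% (Top2a) to 6.44% (Ncapd2) in irradiated libraries and from 4.97% (Ncaph2) to 14.1% (Mki67) in non-irradiated libraries. Ncapd2 had the larger spread in irradiated cells (6.44%, against 5.02% in non-irradiated cells). For Top2a, counting alone gives 1.70% in irradiated libraries, about all of the 1.71% seen, and 1.45% in non-irradiated libraries, where 12.5% was seen. Within the non-irradiated group, II was the highest library for 8 of the 10 genes and III the lowest for 7. Mean deviations from the group mean, on the log2 CPM scale over the 10 genes, were -0.06, 0.12, -0.14 and 0.08 in non-irradiated I to IV, against -0.02 to 0.03 in irradiated libraries. Ncaph2 went the other way and was highest in non-irradiated III. Top2b, which is not one of the 10, showed the split into I and III against II and IV as well, and stood at 330 and 341 CPM in non-irradiated I and III and at 388 and 380 CPM in II and IV. Non-irradiated II and IV were also the closest pair of that group over all genes (chi-square per degree of freedom 5.38, against 8.67 to 14.14 for the other pairs). The shares of all tested genes with a smaller spread in irradiated libraries, or with II highest or III lowest, were not counted. These patterns are therefore not shown to be particular to the 10 genes. The labels name no batch, and the part of this split in the results was not tested.

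Genes that act beside condensin were counted in 7 lists. Over all 15259 genes tested, edgeR called 4.15% lower and 2.59% higher. The share of all genes at an unadjusted p under 0.05 is not given here, so list counts at that threshold have no background beside them. Of 13 genes of the cohesin ring and its loading and release, which holds sister chromatids together, 0 were called in either direction by edgeR, DESeq2 or limma-voom, and the median log2 fold change was 0.02. At an unadjusted p under 0.05, 2 of them were lower, Smc1a (124 ± 3.09 CPM in irradiated and 132 ± 4.85 CPM in non-irradiated libraries, log2 fold change -0.10, adjusted p = 0.171), an SMC subunit of the ring, and Pds5a (180 ± 4.15 CPM in irradiated and 194 ± 8.15 CPM in non-irradiated libraries, -0.11, adjusted p = 0.117), a cohesin regulator. Pds5a was called lower without non-irradiated III (-0.13, adjusted p = 0.0498). Wapl, which opens the cohesin ring, stood at 362 ± 5.82 CPM in irradiated and 351 ± 11.3 CPM in non-irradiated libraries (adjusted p = 0.507; SD, n = 4). Of the 6 genes of the SMC5/6 complex, the third SMC family complex, 0 were called by edgeR and the median was -0.01. At an unadjusted p under 0.05, 1 was lower (Nsmce1) and 1 higher (Nsmce3). Nsmce3 stood at 41.5 ± 3.32 CPM in irradiated and 36.3 ± 2.34 CPM in non-irradiated libraries (log2 fold change 0.19, adjusted p = 0.0845), and passed the threshold in 6 alternatives, among them DESeq2 (0.0462) and the fit without irradiated I and II (0.038). Nsmce1 stood at 37.5 ± 0.660 CPM in irradiated and 41.6 ± 3.04 CPM in non-irradiated libraries (-0.15, adjusted p = 0.103), and was called lower without non-irradiated IV (-0.20, adjusted p = 0.0268). Smc5, the SMC protein with the highest level of the list, stood at 172 ± 4.24 CPM in irradiated and 167 ± 7.89 CPM in non-irradiated libraries (0.04, adjusted p = 0.62). The 5 other topoisomerase genes had log2 fold changes from 0.02 to 0.07 and 0 calls by edgeR, DESeq2 or limma-voom, and 0 at an unadjusted p under 0.05. Top1, which relaxes supercoils through single-strand nicks, stood at 178 ± 3.96 CPM in irradiated and 169 ± 9.67 CPM in non-irradiated libraries (adjusted p = 0.337), and Top3a at 26.4 ± 0.938 CPM in irradiated and 25.3 ± 0.544 CPM in non-irradiated libraries (adjusted p = 0.514).

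Of 7 genes that handle sister chromatid cohesion during division, 4 were lower and 0 higher by edgeR, with a median of -0.45. Over all genes 4.15% were called lower and 2.59% higher. Esco2, the S-phase cohesin acetyltransferase, fell to 4.81 ± 0.626 CPM in irradiated cells, against 7.83 ± 1.60 CPM in non-irradiated cells (SD, n = 4; log2 fold change -0.71, edgeR adjusted p = 0.00738), a call lost without both irradiated I and II (0.0896). Sgo2a, a shugoshin that shields centromeric cohesin, fell to 5.72 ± 0.528 CPM in irradiated cells, against 8.05 ± 0.704 CPM in non-irradiated cells (-0.50, adjusted p = 0.00494). Pttg1 (securin, the separase inhibitor) stood at 40.6 ± 1.92 CPM in irradiated and 42.4 ± 3.45 CPM in non-irradiated libraries (-0.06, adjusted p = 0.589). All 6 genes of the chromosomal passenger complex and the chromokinesins were lower, with a median of -0.61. Cdca8 (borealin) fell to 14.0 ± 0.543 CPM in irradiated cells, against 20.8 ± 0.414 CPM in non-irradiated cells (-0.57, adjusted p = 3.69e-05). The chromokinesin Kif22 fell to 14.7 ± 0.642 CPM in irradiated cells, against 21.4 ± 0.613 CPM in non-irradiated cells (-0.54, adjusted p = 5.79e-05). Incenp, the scaffold of the passenger complex, fell to 44.1 ± 1.58 CPM in irradiated cells, against 51.2 ± 1.54 CPM in non-irradiated cells (-0.22, adjusted p = 0.00614).

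Among 10 kinases and regulators of condensin, 5 were lower and 0 higher by edgeR, against 4.15% and 2.59% of all genes, with a median of -0.12. At an unadjusted p under 0.05, 1 was higher, Set (60.6 ± 7.72 CPM in irradiated and 53.3 ± 1.99 CPM in non-irradiated libraries, adjusted p = 0.16), outside the rule for named genes. Cdk1, the kinase that phosphorylates condensin at mitotic entry, fell to 32.2 ± 1.53 CPM in irradiated cells, against 46.3 ± 0.509 CPM in non-irradiated cells (SD, n = 4; log2 fold change -0.52, edgeR adjusted p = 1.32e-05). Its 4 non-irradiated values, 46.2, 46.6, 45.6 and 46.7 CPM in I to IV, lay close together. II and IV were above I and III, as for Top2a and Smc2, but by much less. Plk1, another mitotic kinase, fell to 7.57 ± 0.496 CPM in irradiated cells, against 12.4 ± 0.784 CPM in non-irradiated cells (-0.71, adjusted p = 7.45e-05), while Ppp2ca, a phosphatase subunit, stood at 471 ± 13.3 CPM in irradiated and 479 ± 12.3 CPM in non-irradiated libraries (adjusted p = 0.754). Of 9 genes of the chromosome periphery and nucleolus, the territory of Ki-67, 1 was lower and 0 higher, with a median of 0.04. A single call among 9 genes is too few to set against the 4.15% of all genes called lower. The lower one was Cdca2 (Repo-Man, a phosphatase-targeting protein of anaphase chromosomes), at 8.92 ± 0.640 CPM in irradiated and 14.7 ± 1.40 CPM in non-irradiated cells (log2 fold change -0.72, adjusted p = 0.000137). Nucleolin, Ncl, stood at 302 ± 10.4 CPM in irradiated and 294 ± 31.7 CPM in non-irradiated cells (adjusted p = 0.771), and Nop56, a ribosomal RNA processing factor, at 84.7 ± 1.61 CPM in irradiated and 90.0 ± 1.66 CPM in non-irradiated cells (-0.09, adjusted p = 0.182). In the 3 lists with lower calls besides the passenger list, 0 genes were called higher by DESeq2 or limma-voom.

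**Figure D5:**
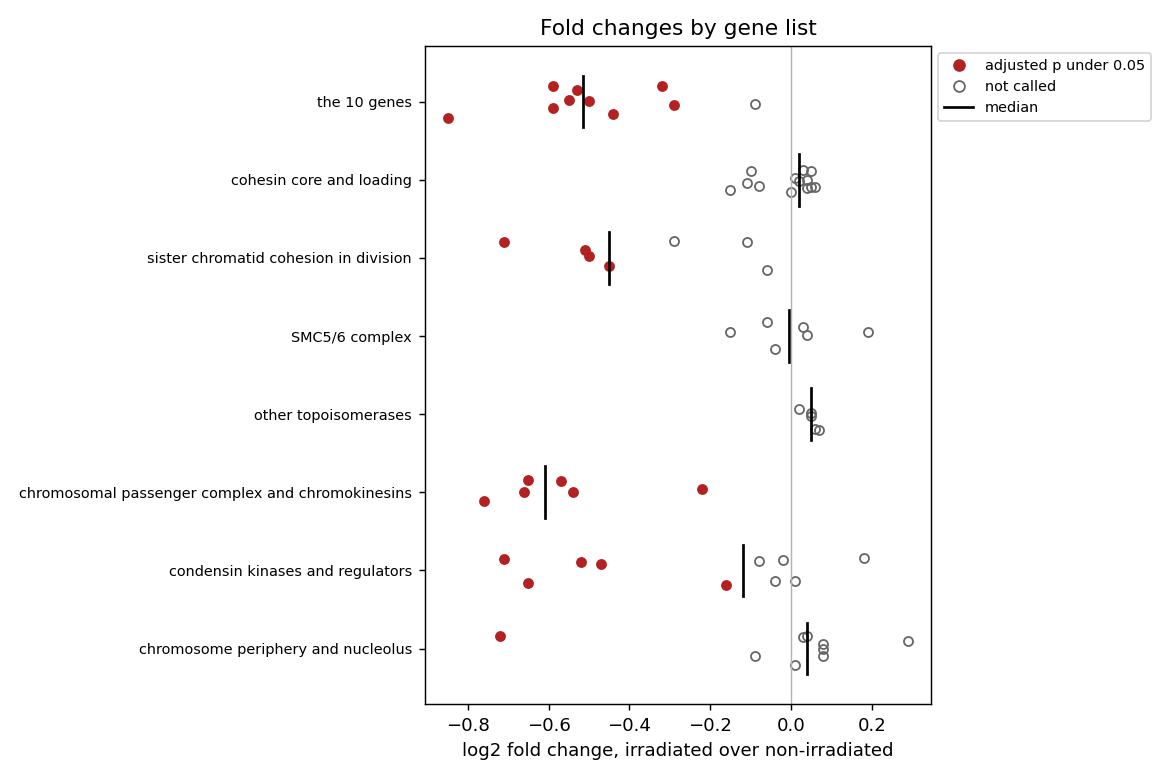
Log2 fold change (irradiated over non-irradiated) of each gene in the 10-gene set and in 7 lists of related genes, with filled red points for an adjusted p under 0.05, open points for genes not called and bars for list medians. The set and the passenger list lie mostly below -0.4, and the cohesin core, SMC5/6 and other topoisomerases lie around 0.

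The genes whose profile over the 8 libraries was nearest to the mean condensin profile were found by the root mean square distance of centred log2 CPM, among 9083 genes with an established symbol and a mean of at least 10 CPM over all 8 libraries. Nearest was Cenpi, a centromere protein, at 0.040 log2 units, with 9.07 to 9.50 CPM in irradiated and 12.1 to 13.8 CPM in non-irradiated libraries. Nav3 (0.047), Plk4, the kinase of centriole duplication (0.050), Spdl1, a kinetochore protein (0.052), Zgrf1 (0.054) and Atp8b1, a phospholipid flippase (0.055), followed. The 6 were chosen as the nearest, so their short distances follow from the choice. The distance of the single condensin genes, which make up the mean profile, ran from 0.069 (Smc2) to 0.195 (Ncaph2). Top2a stood at 0.084 and Mki67 at 0.228. The distance describes 8 libraries in 2 groups and has no test.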

How the data were processed

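Polyadenylated RNA was sequenced in 4 irradiated and 4 non-irradiated libraries. The authors deposited raw read counts per Ensembl gene, 1 file per library, with no normalization. The submitters' processing notes name bcl2fastq 2.20.0.422, STAR 2.5.2a, featureCounts 1.5.0-p1 and the mm10 build. The annotation release, strand setting and treatment of multiply mapping reads are not stated there. Total counts ran from 28731227 to 37157216, and each of the 10 genes had at least 470 counts in every library. GENCODE M21 (GRCm38, the assembly of mm10) gave symbols for 55480 of 55573 identifiers, and the rest held 0.000431% of counts.

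The test was run in R 4.3.3 with edgeR 4.0.16 (TMM factors, filterByExpr with a minimum count of 10, quasi-likelihood test of group alone over all 8 libraries, Benjamini-Hochberg adjustment over 15259 genes), and 40314 genes were left out as low. CPM were computed from the deposited counts with TMM factors and are given per library or as mean ± SD. The SE of a fold change was derived from the F statistic. Ratios of counts used a pseudocount of 0.5 and an exact permutation test. The pipeline was tested on simulated data. Alternatives were other scaling, filters, DESeq2 1.42.0, limma-voom (limma 3.58.1), a threshold of 0.01, a replicate block, and left-out libraries. All 10 genes were named. From each list of related genes the 2 with the smallest adjusted p, the 1 further gene with the highest mean CPM, and Top2b were named. The genes and lists were chosen with earlier results of these data known.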

Additional observations from a re-analysis of the deposited data

Results flagged for a closer look

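In the 32 groups of 4 values examined, over the 10 genes and the 6 ratios, 4 held a library far from the other 3 by Dixon's ratio, where chance flags about 1 group in 20. Irradiated I stood above its group for Ncapd2 (53.6 CPM, against 46.6 to 47.8 CPM in the others), and non-irradiated III stood below its group for the same gene (64.0 CPM, against 70.6 to 71.4 CPM). Non-irradiated II stood above its group for Ncaph (35.8 CPM, against 30.4 to 31.2 CPM). For the ratio of Mki67 to Top2a, non-irradiated III was low (0.676, against 0.712 to 0.718).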

How the results depend on the processing

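All 10 genes kept a negative log2 fold change in each of the 18 alternatives. The count of the 10 called lower was 9 under the other scalings, filters and tools and the replicate block, 7 at a threshold of 0.01, 7 to 9 when 1 library was left out, and 7 without irradiated I and II together, where Smc4 and Ncapd3 were lost. No member was called higher in any of them. Among all genes, lower calls numbered 296 at 0.01, 295 without irradiated I and II, and 415 to 611 with 1 library left out, against 634. They rose to 725 with total counts only, 776 with DESeq2 and 798 without a filter. Higher calls numbered 648 without a filter, 140 at 0.01, and 221 to 402 with 1 library left out, against 395. Deviations of same-numbered libraries from their group means correlated at 0.02, -0.03, 0.27 and 0.15 for numerals I to IV, against at most 0.04, 0.11, 0.07 and 0.15 with another numeral. Irradiated III correlated best with its own number and irradiated I and II did not. Since I and II were under 0.1, the numerals were not used as pairs. With the replicate block the members called lower stayed at 9, and the edgeR adjusted p of Ncapd3 was 0.00485. Among all genes, the block gave 802 lower and 550 higher calls, more than without it, and why was not tested. In the paired sign-flip form, which cannot pass the threshold with 4 pairs, the log2 differences were -0.35 for Ncaph to Ncaph2, -0.24 for Smc2 to Smc4, -0.30 for Mki67 to Top2a and -0.60 for Top2a to Top2b (adjusted p = 0.15 each, exact test). Without irradiated I and II these were -0.31, -0.25, -0.33 and -0.60 (adjusted p = 0.1 each, exact test with too few libraries to pass). With 1 library left out they ran from -0.40 to -0.29, from -0.26 to -0.22, from -0.34 to -0.28 and from -0.64 to -0.58. The ratio of Ncapg to Ncapg2, at 0.00, changed sign within -0.03 to 0.04 with 1 library left out and was -0.04 without irradiated I and II. The log2 fold change of Ppp2ca became 0.01 without irradiated I and II, and that of Ncl ran from -0.03 (without non-irradiated II) to 0.08 with 1 library left out and was -0.00 without irradiated I and II, none of them called. The causes were not tested.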
